A study of Solanum lycopersicum with 6 samples.

Results

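Footprints of elongating ribosomes were set against mRNA in tomato (Solanum lycopersicum) leaf, using the 2 CHX libraries and the 2 mRNA libraries of a series of 6. All 4 libraries come from true leaves of plants grown at 28 °C under 12 h of light, with no second genotype or condition. The labels give an age of 3 weeks in one field and 2 weeks in another. For CHX, footprints were purified from polysome extracts containing 100 µg/ml cycloheximide. For mRNA, total RNA from an aliquot of such an extract was depleted of rRNA. The remaining 2 libraries (LTM) come from leaves treated with LTM. They entered the filter on low counts, the scaling and the estimate of spread, and their values are given only where they are named.

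A ribosome shields a short stretch of mRNA from RNase, and sequencing these stretches shows which mRNAs are being read. Cycloheximide halts ribosomes during elongation, so footprints spread over the coding region. The footprints of a gene relative to its mRNA are called its translational efficiency. In leaves much protein synthesis serves photosynthesis. RNAs without an open reading frame can be abundant in a total RNA library and carry few footprints. The deposited counts take only coding sequence for footprints but whole transcripts for mRNA, so long untranslated regions lower the ratio. A leaf holds several cell types, and the ratio is an average over them.

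The gene models carry tomato locus identifiers of the Solyc type without gene names, and a RefSeq gene table for the species (assembly SLM_r2.1) lists 0 of them. Photosynthesis, hormone, defence and stress genes were therefore not picked out here, and the leaf label was not checked against marker genes. What an identifier itself records was used instead. By convention it gives the chromosome (00 for sequence not placed on one), a locus number that ascends along the chromosome, and a version digit that goes up when a model is revised. Locus numbers were first issued in steps of 10, so a number that does not end in 0 belongs to a model inserted between earlier ones.

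Total counts were 48704200 and 47856048 in CHX replicates 1 and 2, and 24810169 and 30371574 in mRNA replicates 1 and 2. Of 35768 models, 20806 had enough counts to be tested. Levels are given as CPM (counts relative to the library total) with TMM scaling, and the ratio is the log2 fold change of CHX over mRNA fitted by edgeR's quasi-likelihood test, called at a Benjamini-Hochberg adjusted p under 0.05. Whether the replicates are separate plants is not stated, so the p-values reflect the variation of these libraries alone, possibly technical.

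Most well-counted models had CHX footprints close to their mRNA level. Among the 9579 models with at least 100 counts in each of the 4 libraries, 83.7% had a CHX/mRNA ratio within 2-fold of the scaling level. The middle of this distribution was narrow, with a lower quartile of -0.38, a median of 0.17 and an upper quartile of 0.61 on the log2 scale. Its tails were unequal. The 1st percentile was -3.18 and the 99th was 1.42, and 208 models were at least 4-fold lower in CHX against 18 at least 4-fold higher. The long lower tail was present in each of the 4 pairings of a CHX with an mRNA library, where the 1st percentile lay between -3.27 and -3.07 and the 99th between 1.35 and 1.63.

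These ratios spread more widely than replicates of one kind. Across the same models the standard deviation of the log2 ratio was 0.904, against 0.298 between the CHX replicates and 0.265 between the mRNA replicates. Within 2-fold of each other were 99.1% of models in the CHX replicates and 99.5% in the mRNA replicates. A minimum count in every library leaves out models with almost no footprints or almost no mRNA. Both tails are therefore longer over all tested models. Among the 9579 models, 110 were called and at least 8-fold lower in CHX, and 3 at least 8-fold higher. Over all 20806 tested models these numbers were 1329 and 261.

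**Figure D1:**
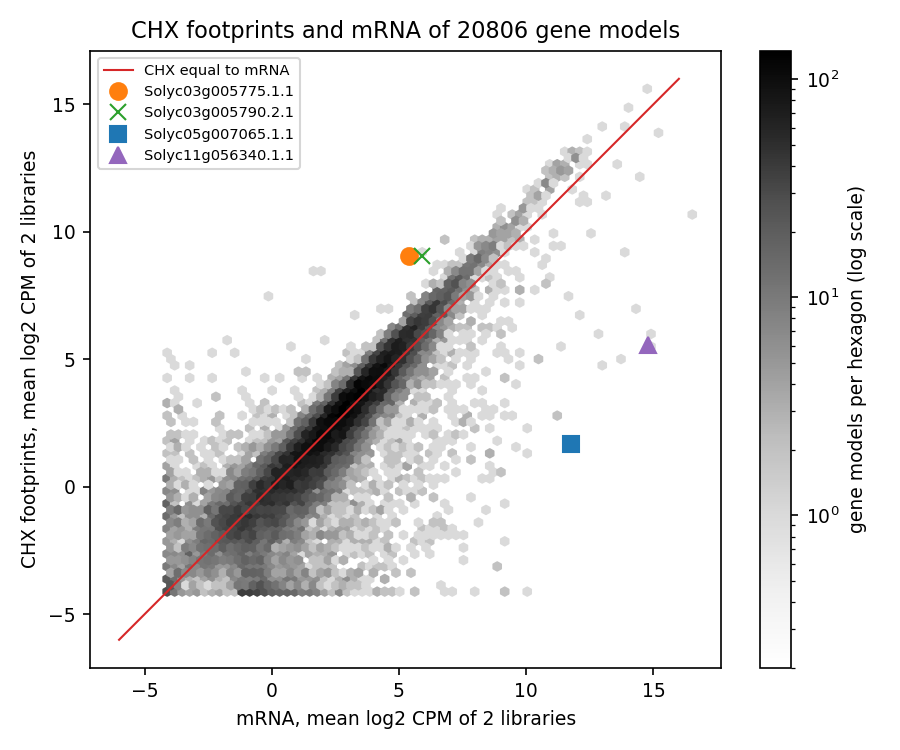
Mean log2 CPM of the 2 CHX libraries (vertical axis) against that of the 2 mRNA libraries (horizontal axis), with shading for the number of gene models per hexagon on a log scale. Most of the 20806 models lie near the line of equal levels, and the scatter below the line reaches further than the scatter above it, with Solyc05g007065.1.1 and Solyc11g056340.1.1 far below.

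Over all tested models, 4680 were higher in CHX (22.5%) and 5708 lower (27.4%). Leaving out mRNA replicate 1 gave 2676 higher models, and leaving out mRNA replicate 2 gave 2914. With at least 10 CPM required in 2 libraries, 1700 were higher and 2334 lower. At least 8-fold lower were 1329 models (6.39%), and 261 were at least 8-fold higher (1.25%). In these 2 classes, a model with 0 counts in one kind of library was placed at the ratio that 3 counts over its libraries would give. At the limit, the called models just inside and just outside the lower class had log2 ratios of -3 and -2.996.

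The calls divide the libraries very unevenly. The 1329 models at least 8-fold lower held 0.427% and 0.365% of the counts of the CHX replicates, against 31.4% and 22.8% of the counts of the mRNA replicates. The 10 of them with most mRNA account for 25.7% and 17.4% of the mRNA counts and 0.275% and 0.225% of the CHX counts. Since the class was chosen by this ratio, the contrast is a description. The LTM libraries did not enter the ratio, and the 1329 models held 0.636% and 0.724% of their counts. The mRNA share differed between the mRNA replicates, and the mRNA replicate with the larger share also had the smaller scaling factor, 0.863 in mRNA replicate 1 and 1.03 in mRNA replicate 2. The part of this difference in the ratios was not tested.

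At the other end, the 4680 models called higher held 74.7% and 73.1% of CHX counts, against 35.1% and 41.0% of mRNA counts. Almost all of this came from models less than 8-fold higher. The 261 models at least 8-fold higher held 0.226% and 0.549% of CHX counts, with a median of 1.43 CPM in CHX and 0.0234 CPM in mRNA. The typical model of that class was thus scarce, whereas the bulk of the footprints lay on models with moderately raised ratios.

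**Figure D2:**
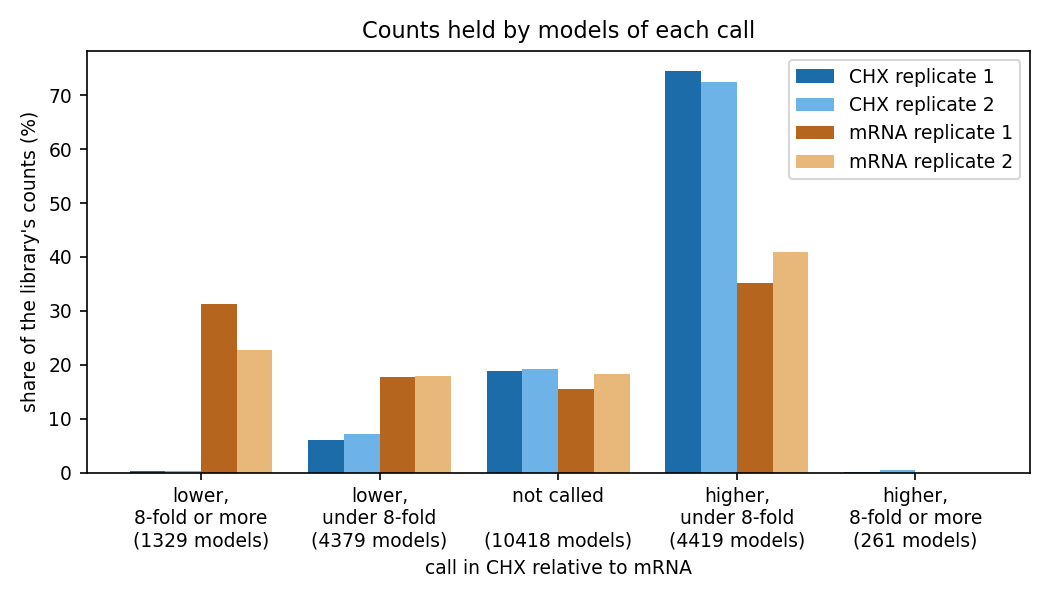
Share of each library's counts (vertical axis, percent) held by models of each call in CHX relative to mRNA (horizontal axis), with a bar for each CHX and each mRNA replicate. Models lower by 8-fold or more take 31.4% and 22.8% of the mRNA counts and under 1% of the CHX counts, and models higher by less than 8-fold take 74.5% and 72.5% of the CHX counts.

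Abundant transcripts fell into both groups. Of the 122 models with at least 1000 CPM of mRNA, 76 were higher in CHX, 36 were lower and 10 were not called. Among the 36, 18 were at least 8-fold lower. Those 18 had a median of 42.4 CPM in CHX (0 to 1572), against 4319 CPM in mRNA (1013 to 98352), and of 40.4 CPM in LTM. They were spread over 9 chromosome numbers, 13 carried version digit 1, and 16 had more mRNA in replicate 1 than in replicate 2. Of the 139 models with at least 1000 CPM in CHX, 117 were called higher, 8 lower and 14 not called. Over all tested models, 22.5% were called higher and 27.4% lower. Each set was picked by a level that enters the ratio, which tilts its calls towards that side, so these splits are descriptions. Both thresholds were passed by 93 models.

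Few models made up much of each library. The smallest number of models that together held 50% of the counts was 76 and 81 in the CHX replicates, against 44 and 72 in the mRNA replicates. The groups did not overlap, although mRNA replicate 2 lay nearer to the CHX libraries than to mRNA replicate 1. For 90% of the counts the numbers were 2637 and 2777 in CHX, against 2665 and 3292 in mRNA, where the ranges overlapped.

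The ratio differed by identifier class. Models whose number does not end in 0, all with version digit 1, had the lowest median of the 3 classes: of 1510 tested, 258 were higher in CHX (17.1%) and 637 lower (42.2%), with a median log2 ratio of -0.53. In this class 329 models (21.8%) were at least 8-fold lower, against 1000 of the 19296 models with numbers ending in 0 (5.18%). The class also had a larger share at least 8-fold higher than models with numbers ending in 0, 44 (2.91%) against 217 (1.12%). Of the 44, 41 had under 1 CPM of mRNA, and of the 217, 206 did. With version digit 1 and a number ending in 0, the share was 81 models (3.29%), 79 of them under 1 CPM of mRNA. Models so scarce in mRNA can pass the filter through their footprint counts, so no class difference is read from the shares at least 8-fold higher. The median of the class moved with the counts required. It was -0.17 with at least 10 CPM required in 2 libraries, a setting that itself shifted the ratios by a median of -0.27. In its models with 100 CPM of mRNA or more, it was -1.19. Among the 349 models of this class with at least 100 counts in each of the 4 libraries the median was 0.09. That minimum leaves out models with almost no footprints or almost no mRNA, so both low and high ratios are under-represented. At least 8-fold lower were 14 of the 349 (4.01%), against 96 of 9230 models with numbers ending in 0 (1.04%). Those 96 were 49 of 598 with version digit 1 (8.19%) and 47 of 8632 with version digits 2 to 4 (0.544%). The never revised models whose number ends in 0 were wide in both directions. Of 2462 tested, 684 were higher (27.8%) and 586 lower (23.8%), the median was 0.26, and 333 (13.5%) were at least 8-fold lower. Of the 16834 models with version digits 2 to 4, 22.2% were higher, 26.6% lower and 3.96% at least 8-fold lower. Within the revised models the share at least 8-fold lower was 6.71% at version digit 2 and 2.94% at version digit 3.

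Fewer of the scarce, never revised models passed the filter on low counts. It kept 1510 of 4900 models with numbers not ending in 0, 2462 of 8027 with version digit 1 and a number ending in 0, and 16834 of 22841 with version digits 2 to 4. Median mRNA levels of the tested models were 1.64, 1.59 and 5.51 CPM in these classes. Classes were therefore also compared within bands of mRNA level. Under 1 CPM of mRNA, 154 of 581 inserted models (26.5%) were at least 8-fold lower, 58 of 1014 other never revised models (5.72%) and 212 of 2889 revised ones (7.34%). In this band median mRNA levels were 0.449, 0.301 and 0.452 CPM, so the classes were not fully alike. At such levels an 8-fold lower ratio comes near the CHX limit of 0.0333 CPM for a count of 0. A model this scarce with almost no CHX counts was tested only if its mRNA or LTM counts carried it through the filter. For these reasons the shares in this band are not read as class differences. At 1 to 10 CPM of mRNA, 113 of 663 inserted models (17.0%) were at least 8-fold lower, 121 of 931 other never revised models and 300 of 7999 revised ones (3.75%). At 10 to 100 CPM the shares were 20.2%, 26.9% and 2.01%. At 100 CPM or more they were 17 of 43 (39.5%), 50 of 130 (38.5%) and 50 of 714 models. In the most abundant class the median log2 ratio was -1.19 for inserted and -2.30 for other never revised models, and 0.61 for revised ones. Models of a class are not replicates, and these shares were compared without a test.

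Between the libraries, the inserted models held 2.62% and 3.15% of CHX counts, against 7.02% and 6.65% of mRNA counts. The 14364 models with version digit 3 went the other way, with 65.0% and 64.6% of CHX counts, against 41.1% and 47.7% of mRNA counts. Neither pair of these ranges overlapped. Of the inserted models, 43 had 100 CPM of mRNA or more. These held 1.82% and 2.31% of CHX counts, against 6.24% and 5.72% of mRNA counts. Those at 10 to 100 CPM held 0.575% and 0.608% of CHX counts, against 0.553% and 0.650% of mRNA counts. The difference in shares thus lay mainly in the 43. At version digit 3 the median log2 ratio was -0.015, with 22.0% called higher and 26.3% lower. Its larger CHX share is thus not a raised ratio across the class.

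**Figure D3:**
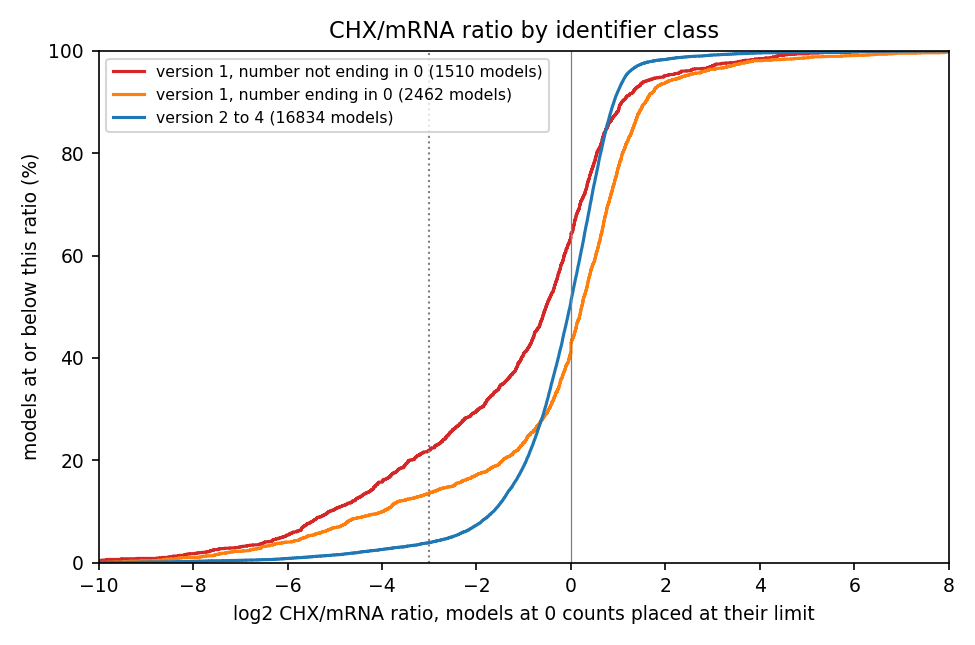
Cumulative share of tested models (vertical axis, percent) at or below a log2 CHX/mRNA ratio (horizontal axis), with 1 line per identifier class and a dotted line at the 8-fold limit of -3. At that limit the line of models with numbers not ending in 0 lies highest, the line of other models with version digit 1 lies below it, and the line of version digits 2 to 4 lies lowest.

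Low ratios were more frequent in the middle of the numbering of a chromosome. The models of each of the 12 numbered chromosomes were put in identifier order and divided into deciles of equal size. At least 8-fold lower were 10.2%, 9.68% and 9.003% of the tested models in deciles 3, 4 and 5, against 5.09% in decile 1 and 3.30% in decile 10. Decile 6 stood at 5.76%, below decile 2 at 5.92% and decile 7 at 6.64%. Deciles 3 to 6 together had 607 of 7082 models at least 8-fold lower (8.57%), against 656 of 13530 in the other deciles (4.85%). The share called higher was 21.6% in deciles 3 to 6 and 23.0% in the others. Models at least 8-fold higher also made up a larger share in deciles 3 to 6, at 1.99% against 0.798%. Under 1 CPM of mRNA lay 135 of these 141 models in deciles 3 to 6, and 100 of the 108 elsewhere. Models so scarce in mRNA can pass the filter through their footprint counts, so nothing is concluded from this share. Fewer models of the middle passed the filter, 7082 of 13971, against 13530 of 20959 elsewhere. In tomato the middle of most chromosomes is gene-poor pericentromeric heterochromatin, and gene density is highest towards the ends.

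The excess of low ratios in deciles 3 to 6 was found on 11 of the 12 chromosomes. It was widest on chromosome 12, with 12.4% in deciles 3 to 6 against 5.12% elsewhere, and on chromosome 4, with 9.91% against 2.74%. Chromosome 2 went the other way, with 3.93% in deciles 3 to 6 against 8.62% elsewhere. On chromosome 6 the shares were close, at 5.42% and 4.75%. The order of chromosomes depended on how deciles were drawn. With deciles of the number range, chromosome 2 had 9.09% against 6.41%, chromosome 10 turned to 5.66% against 6.86%, and the widest difference was on chromosome 8, at 24.2% against 4.04%. Part of the excess went with the identifier classes, and part remained within them. Among models with version digits 2 to 4 the shares were 5.20% in deciles 3 to 6 and 3.13% elsewhere, and among models with version digit 1 they were 20.6% and 12.97%. At 100 CPM of mRNA or more, all versions together, they were 19.6% of 316 models and 6.56% of 549. With version digits 2 to 4 alone at that level, they were 10.2% of 225 models and 3.97% of 478.

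**Figure D4:**
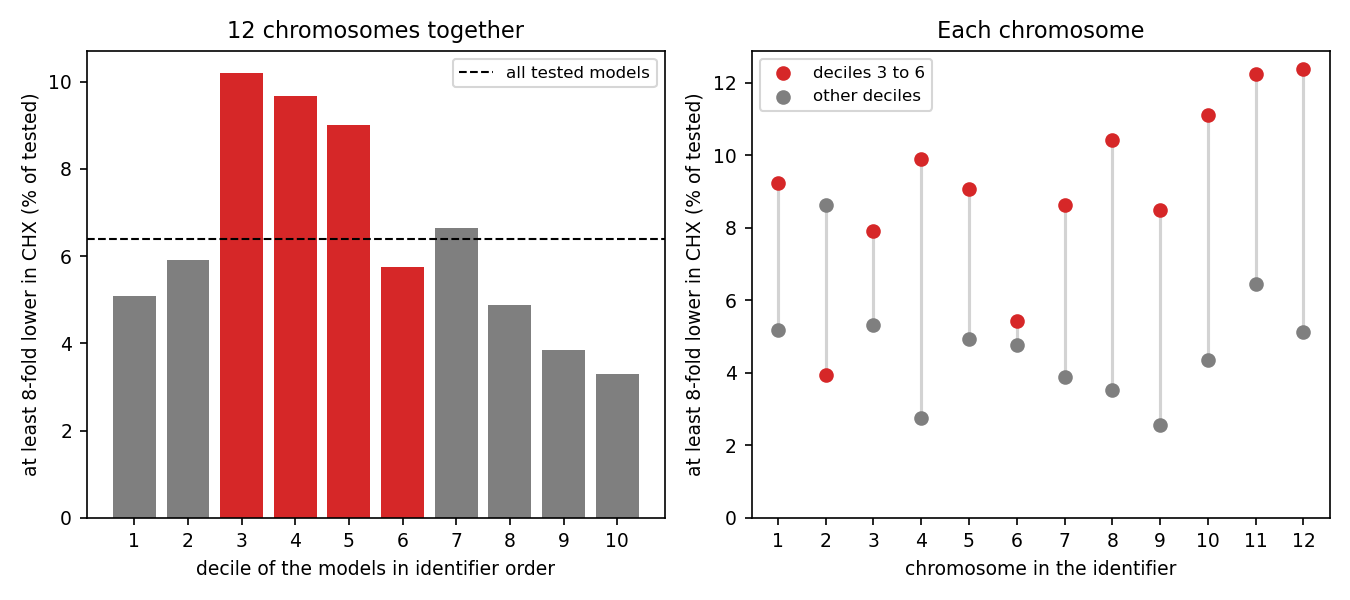
Share of tested models at least 8-fold lower in CHX (vertical axes, percent) by decile of the models in identifier order (left) and for deciles 3 to 6 and the other deciles of each chromosome (right), with the share over all tested models as a dashed line. Deciles 3 to 5 stand at 9.003% to 10.2%, and the point for deciles 3 to 6 is the upper one on every chromosome except chromosome 2.

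Models on unplaced sequence (chromosome number 00) stood furthest from the rest. Only 194 of 838 were tested, of which 38 were higher in CHX (19.6%), 85 lower (43.8%) and 66 at least 8-fold lower (34.0%). They held 0.729% and 0.718% of CHX counts, against 4.46% and 3.85% of mRNA counts. The model with most mRNA there alone took 0.480% and 0.457% of CHX counts, against 2.13% and 2.15% of mRNA counts.

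Among the placed chromosomes the shares called lower were more alike, between 23.0% on chromosome 9 and 29.4% on chromosome 2, and the shares called higher ran between 19.5% on chromosome 2 and 26.8% on chromosome 10. Chromosome 2 nevertheless carried most footprints, at 21.5% and 20.6% of CHX counts, against 14.6% and 15.0% of mRNA counts. Of the 13 chromosome numbers, 7 had a larger share in both CHX libraries than in both mRNA libraries, 5 a smaller one, and 1 (chromosome 9) overlapped. Single models weighed heavily in some of these shares. Chromosome 5 had 4.48% and 4.298% of CHX counts, against 14.7% and 11.1% of mRNA counts, and 1 model made up 10.9% and 7.23% of the mRNA counts. Without that model chromosome 5 had 4.33% and 4.16% of CHX counts, against 3.77% and 3.90% of mRNA counts, so its direction turned. Chromosome 12 had 5.92% and 5.94% of CHX counts, against 7.47% and 6.91% of mRNA counts. Its direction turned too without its model richest in mRNA, with 5.91% and 5.94% of CHX counts, against 4.72% and 5.33% of mRNA counts. Chromosome numbers 00, 1 and 11 kept the smaller share in CHX without theirs. Chromosome 1, for example, then had 8.24% and 8.38% of CHX counts, against 9.91% and 9.69% of mRNA counts.

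Neighbours in the numbering tended to share a call. Of the 1262 models at least 8-fold lower that had a next tested model on their chromosome, 22.8% were followed by another of that class, which made up 6.13% of the models on placed chromosomes. For all models called lower the share was 33.3%, beside 27.3% of the models, and for models called higher 27.5%, beside 22.5%. The Spearman correlation of the ratio between neighbours was 0.13 over 20600 adjacent pairs, which can share transcripts, reads or sequence copies. There were 54 runs of at least 3 consecutive tested models at least 8-fold lower, with 235 models in all. The longest held 13 models on chromosome 11, with 0 to 53.4 CPM in CHX (median 0.329), against 2.94 to 29540 CPM in mRNA (median 48.1). The highest of these mRNA levels is that of Solyc11g056340.1.1. A second run on chromosome 11 held 12 models and one on chromosome 5 held 11. In this order the runs began in deciles 7, 5 and 7, so not all lay in deciles 3 to 6.

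Among the longest runs of models called higher was a row of 8 on chromosome 2, with log2 ratios between 1.18 and 1.64. Each had 5185 to 8598 CPM in CHX, against 1673 to 3488 CPM in mRNA. Together they held 5.30% and 4.94% of CHX counts, against 1.83% and 1.99% of mRNA counts, and 4.96% and 5.57% of LTM counts. The counts of such neighbours are uncertain where sequences are near-identical, because the treatment of reads with several matches is not given in the sources used here.

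By the rule for named models, 2 were named in each direction, out of 618 higher and 131 lower ones with at least 100 counts in all 4 libraries, a mean of at least 100 CPM and no overlap between the kinds of library. Solyc03g005775.1.1 had 537 and 534 CPM in CHX, against 38.3 and 45.0 CPM in mRNA. The log2 ratio was 3.68 (SE 0.24, edgeR adjusted p = 2.96e-05). Solyc03g005790.2.1, close to it on chromosome 3, had 57.1 and 62.5 CPM in mRNA and a log2 ratio of 3.16 (SE 0.23, edgeR adjusted p = 4.97e-05). Its counts in the CHX and LTM libraries were identical to those of Solyc03g005775.1.1, at 23554 and 24656 in CHX, while the mRNA counts differed. Both ratios thus rest on the same footprint counts, and the ratio of neither model can be given on its own. Among models with at least 100 counts in each footprint library, 6 pairs had identical footprint counts.

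On the low side, Solyc05g007065.1.1 had 3.88 and 2.54 CPM in CHX, against 5624 and 2127 CPM in mRNA. This was a 1208-fold lower level in CHX, with a log2 ratio of -10.24 (SE 0.62, edgeR adjusted p = 2.14e-05). Solyc11g056340.1.1 had 79.6 and 27.3 CPM in CHX, against 37975 and 21106 CPM in mRNA, with a log2 ratio of -9.11 (SE 0.75, edgeR adjusted p = 0.000110). Replicates of these 2 models differed by up to 2.9-fold, far less than the difference between CHX and mRNA. Both had a low level in the LTM libraries as well, with means of 6.90 ± 0.967 and 67.9 ± 31.5 CPM (SD, n = 2).

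**Figure D5:**
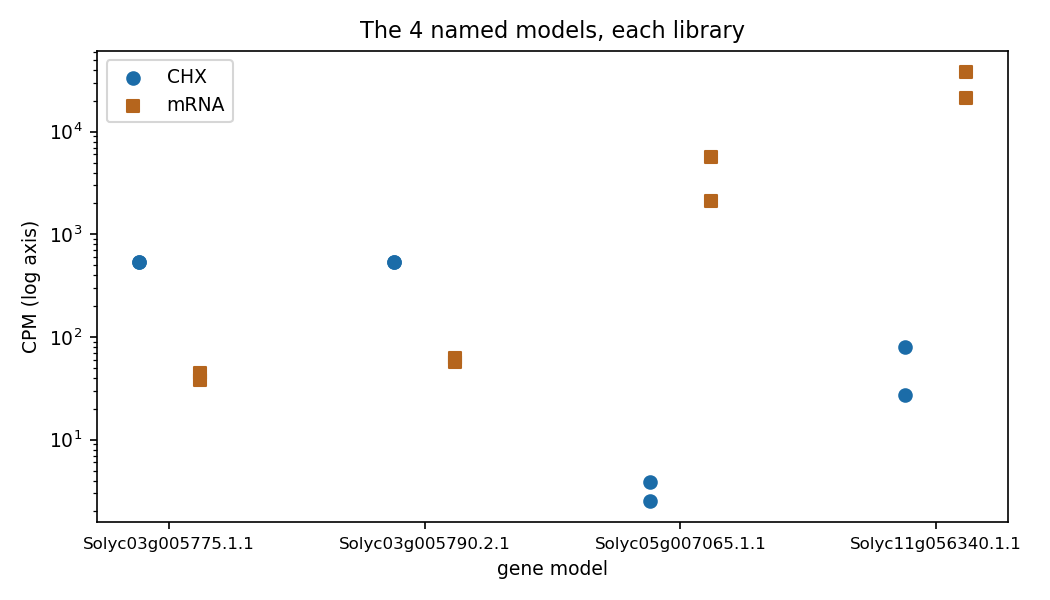
CPM on a log axis (vertical) of the 4 named models (horizontal) in each library, with circles for the 2 CHX and squares for the 2 mRNA replicates. The CHX circles lie above the mRNA squares in the models on chromosome 3, at 537 and 534 CPM, and far below them in the other 2.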

How the data were processed

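The authors deposited one table of raw read counts per gene model. Per the file headers, CHX and LTM reads were counted over coding regions, and mRNA reads over transcript regions. For aligner, counter, genome build and annotation release: not given in the sources used here. No molecular identifiers are mentioned. Groups and replicate numbers come from the sample titles. Models were kept by filterByExpr (20806 of 35768, at least 99.95% of each library's counts), scaled by TMM, and fitted with edgeR 4.0.16 (R 4.3.3) by quasi-likelihood over all 6 libraries with kind of library as the factor (3 residual degrees of freedom). SE is the log2 ratio divided by the square root of F; its median was 0.22. TMM scaling makes every ratio relative to the bulk of the models. The named-model rule takes, per direction, the 2 largest ratios among called models with at least 100 counts in each of the 4 libraries, a mean of at least 100 CPM and no overlap between kinds. The procedure was tested on simulated counts. Members, classes and lists were chosen with earlier results of these data known. Number endings, deciles, neighbour runs and the 8-fold classes were chosen after the values were seen. Not run, for want of gene names and of coding and transcript lengths, were the gene lists and the per-kilobase ratio. A count of 0 allows up to 3 counts, or 0.0333 CPM over both CHX and 0.0571 CPM over both mRNA libraries, counting error only. Alternatives used DESeq2 1.42.0, other scalings and filters, fewer libraries and a replicate block.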

Additional observations from a re-analysis of the deposited data

How the results depend on the processing

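No named model lost its call or changed sign, and the median ratio of models with numbers not ending in 0 stayed below 0 in the alternatives run. Of 156 alternative values 123 stayed within the limits set for them, among them all 11 for each named model. That median moved beyond them in 5 of 11. The share at least 8-fold lower moved in 6 of 11 for models with numbers not ending in 0 and in 3 of 11 for version digits 2 to 4. For deciles 3 to 6 it moved in 7 of 12, and for the other deciles in 5 of 12. With at least 10 CPM required in 2 libraries, 1700 models were higher and 2334 lower in CHX, in part because fewer were tested, and the ratios shifted by a median of -0.27. The models higher in CHX numbered 2676 without mRNA replicate 1, 2914 without mRNA replicate 2 and up to 3814 without a CHX replicate, and those lower 4055 to 4889 without any one of these libraries; the cause was not tested. The median log2 ratio of models with numbers not ending in 0 was -0.72 with no filter, -0.17 with the 10 CPM filter and -0.69 to -0.46 without 1 library; the cause was not tested. Their share at least 8-fold lower ran from 16.8% to 23.8%, that of deciles 3 to 6 from 6.68% to 9.86% that of the other deciles from 2.77% to 5.66% and that of version digits 2 to 4 from 2.25% to 4.55%. With the 10 CPM filter 368 models were at least 8-fold lower and 38 at least 8-fold higher, and with no filter 1728 and 392; without any one library they numbered 1242 to 1518 and 246 to 299. Deciles of the number range in place of deciles of the models gave 9.86% and 5.18%, with chromosome 10 in place of chromosome 2 as the exception. Nothing in the labels ties a replicate number to a shared extract. Deviations of same-numbered CHX and mRNA libraries correlated at 0.356, and a replicate block gave 5623 models higher and 6326 lower and changed no call of a named model. DESeq2 gave 4379 and 5149. With only the CHX and mRNA libraries the counts were 4914 and 5874. Depth leaves only a limit for the 333 tested models at 0 counts in CHX and the 220 at 0 in mRNA.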
